A study of Mus musculus with 6 samples.

Results

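The genes for the transcription factors OCT4 (Pou5f1), SOX2 (Sox2) and NANOG (Nanog) were examined for SALL4 binding in mouse embryonic stem cells. All SALL4 intervals in each gene or within 120 kb on either side of it were taken from 4 peak lists, so that distal enhancers were included. The 3 windows held 76 of the 55058 intervals of wild-type replicate 1, 66 of the 48295 of wild-type replicate 2, 0 of the 34 of knockout replicate 1 and 0 of the 39 of knockout replicate 2. Of the wild-type intervals, those that overlapped between both lists by at least 1 bp formed 48 shared regions, out of 37997 in all.

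Binding was mapped by CUT&RUN, which uses an antibody inside permeabilised cells to bring a nuclease to the protein's sites and sequences the DNA it releases. Both lines were embryonic stem cells grown with LIF and 2 kinase inhibitors. One line (Sall4 F/F, titled WT) carries Sall4 alleles flanked by recombination sites, and the other (Sall4 -/-, titled KO) lacks Sall4. Each genotype was 1 line with 2 SALL4 libraries, and the labels do not say whether these came from separate cultures, so spreads between them may be technical. A sample of each line titled IgG exists and was not analysed here; its antibody entry names SALL4, under another catalogue number than the SALL4 samples. Whether these served as the control behind the fold enrichments is not given in the sources used here. Peak lists hold no expression values, so the labelled cell type could not be checked against its marker genes.

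OCT4, SOX2 and NANOG bind enhancers together, often OCT4 and SOX2 side by side on a joint DNA element, and they maintain their own and one another's transcription in cells that can form every tissue of the embryo. SALL4 is a zinc-finger protein of the same network that prefers A and T rich DNA. Each of the 3 genes is served by enhancers known from reporter and deletion experiments. Pou5f1 has a distal and a proximal enhancer just upstream. Sox2 has the regulatory regions SRR1 and SRR2 close to the gene and a far downstream cluster, the Sox2 control region. Nanog has enhancers named for their places 5 and 45 kb upstream and 60 kb downstream.

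Only the Nanog promoter was overlapped by a SALL4 interval in both wild-type lists. The promoters of the 3 genes are shown to let the letters under the called and uncalled starts be compared. Each sequence is the RefSeq promoter on GRCm38.p6, plus strand, from 250 bases before the gene's 5' end to 50 bases after it. Capitals mark matches, on either strand, to ATTTGCAT (the octamer bound by OCT factors), ACAATG (a SOX site), TTGTNATGC (the core of the joint SOX and OCT element) and ATATT (an A and T rich site); matches may overlap. They lie at chr6:122707239-122707538 (Nanog), chr3:34649745-34650044 (Sox2) and chr17:35505782-35506081 (Pou5f1).
Nanog: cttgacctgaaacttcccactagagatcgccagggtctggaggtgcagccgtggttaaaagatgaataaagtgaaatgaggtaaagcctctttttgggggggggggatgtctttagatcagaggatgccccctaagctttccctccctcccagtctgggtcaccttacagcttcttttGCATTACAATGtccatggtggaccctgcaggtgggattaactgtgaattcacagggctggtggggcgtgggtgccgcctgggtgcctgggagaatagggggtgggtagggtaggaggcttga
Sox2: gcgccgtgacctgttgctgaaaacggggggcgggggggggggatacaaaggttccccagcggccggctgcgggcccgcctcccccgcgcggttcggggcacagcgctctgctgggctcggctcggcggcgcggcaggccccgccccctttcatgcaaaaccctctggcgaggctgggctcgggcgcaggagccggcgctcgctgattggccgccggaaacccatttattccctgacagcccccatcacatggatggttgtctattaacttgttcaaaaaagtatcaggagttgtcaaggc
Pou5f1: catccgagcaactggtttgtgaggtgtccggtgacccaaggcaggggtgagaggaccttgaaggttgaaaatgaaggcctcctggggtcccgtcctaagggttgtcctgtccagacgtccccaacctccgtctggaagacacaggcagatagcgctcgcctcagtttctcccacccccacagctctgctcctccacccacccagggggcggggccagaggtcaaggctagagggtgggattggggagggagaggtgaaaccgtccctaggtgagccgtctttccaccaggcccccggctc

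The 11 capital letters of Nanog hold a joint SOX and OCT core, 72 bp before the 5' end, overlapping an ACAATG 67 bp before it. The middle of the core lay 28 bp from the nearest SALL4 summit of replicate 1 and 31 bp from that of replicate 2. The Sox2 and Pou5f1 promoters printed here held none of the 4 motifs, which says only that these letters are not in those windows. RefSeq gives a second promoter for Pou5f1, at chr17:35508557-35508856 inside the gene, which held an ACAATG at 35508649 to 35508654. The second promoter of Nanog overlaps the first and held the same pair of matches. Of 32851 RefSeq promoters of the same length, 0.731% held the joint core, 12.6% ACAATG, 1.74% the octamer and 25.3% ATATT. Among the 955 promoters overlapped in both wild-type lists, the shares were 1.36%, 12.6%, 6.49% and 27.3%. The GC content was 54.3% for Nanog, 66.3% for Sox2 and 62.7% for Pou5f1, against a median of 52.7% over all promoters. No genome sequence was used here, so the enhancer intervals described next could not be searched for motifs.

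The values below are those of the authors' peak caller. The fold enrichment is the pileup of fragments at an interval's summit over a local background, and it ranks and describes sites within a list. The folds of both wild-type lists are given side by side as replicate values. How the lists were scaled to one another is not given in the sources used here, so a difference in fold between them is not read as a change in binding. The pileup and the background were recovered as numbers of fragments from the deposited fold enrichment and p-value, and this gave a whole pileup for all 142 wild-type intervals in the windows. Read totals are not in the lists, and the weakest calls in the windows rested on 4 fragments in each replicate.

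The comparison of genotypes asked whether the intervals at these genes depend on Sall4. At Pou5f1 there were 9 and 8 intervals in wild-type replicates 1 and 2 and 0 in each knockout list. At Sox2 there were 32 and 29 against 0 and 0. At Nanog there were 35 and 29 against 0 and 0. In each window both wild-type numbers thus lay above both knockout numbers, and so did 86.6% of all 21887 coding genes' windows, so this separation was not particular to the 3 genes. The mean over the 3 windows together was 71 ± 7.07 intervals (SD, n = 2) in wild type, a difference of 6.17 in log2(number + 1). For the sum and for each gene, exact permutation of the group labels gave a two-sided p = 0.333, the smallest that 2 libraries against 2 allow. The weakest call in the stricter knockout list had a −log10 p of 7.12. When the wild-type lists were held to that limit (an alternative added with the data in view), the 3 windows had 53 and 41 intervals. Of these, 8 and 4 were at Pou5f1, 24 and 20 at Sox2 and 21 and 17 at Nanog.

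**Figure D1:**
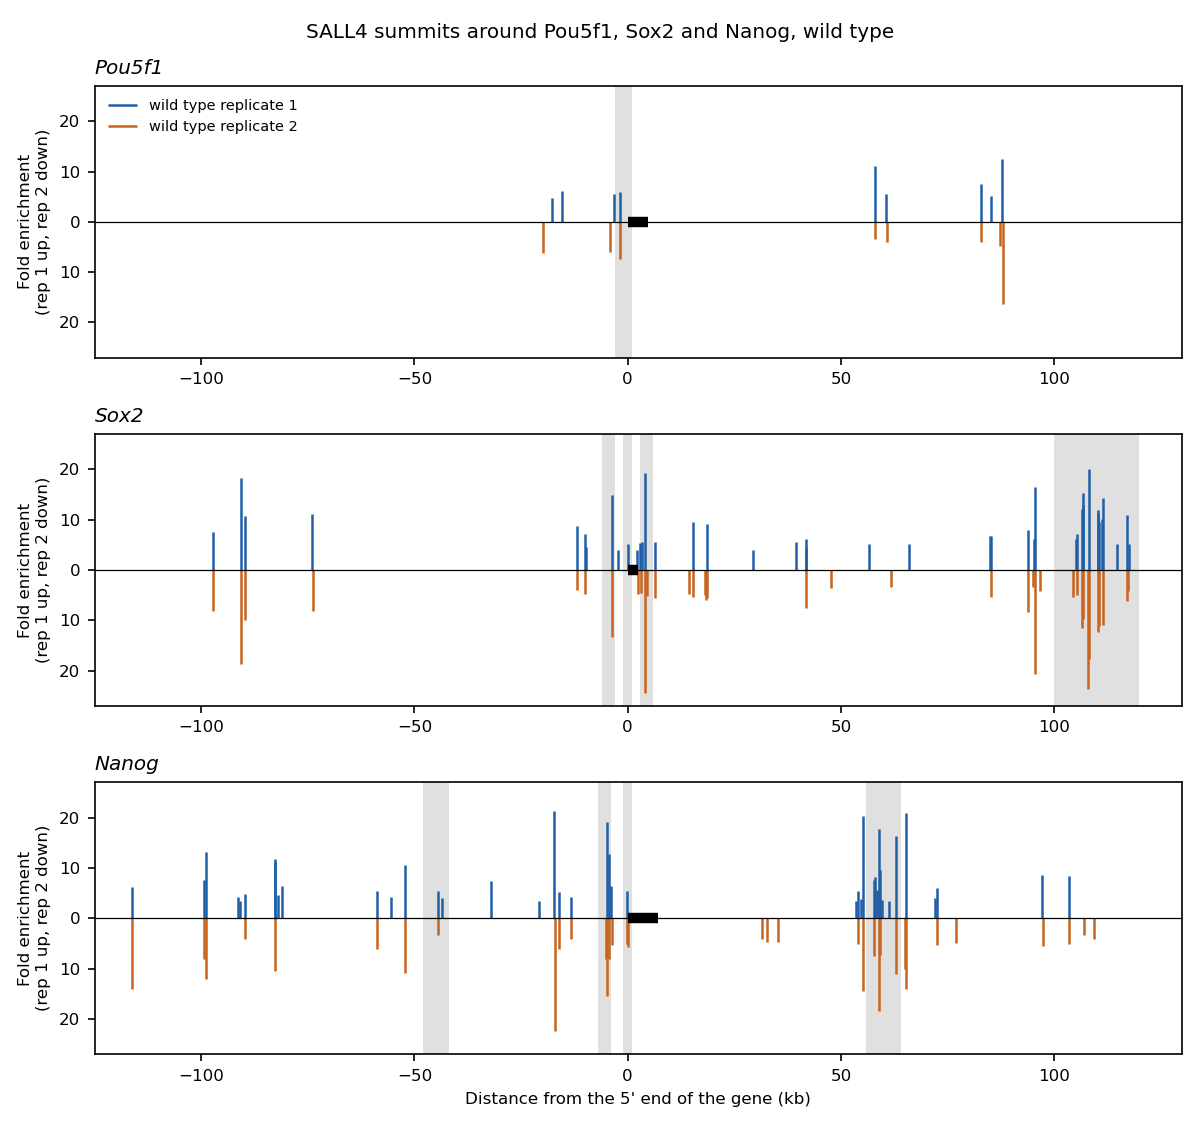
Fold enrichment of every SALL4 summit (y axis, replicate 1 upward and replicate 2 downward) against its distance from the 5' end of the gene in kb (x axis), with the gene as a black bar and the promoter and known enhancer ranges in grey. Strong summits of Sox2 lie near the gene, beyond 90 kb downstream and near 90 kb upstream. Those of Nanog lie near 60 kb downstream and at 4.84 and 17.2 kb upstream, among other places. Pou5f1 has few summits, and the knockout lists have none.

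Pou5f1 (gene ID 18999, chr17:35506032-35510777, plus strand) had the sparsest window, with 5 shared regions, and 43.0% of coding genes' windows held at least as many. No interval of either list overlapped the gene, its promoter or the range within 1 kb of its 5' end. The site nearest the gene was shared by both replicates and lay at 35503862 to 35504361, inside the long non-coding RNA gene Gm32362. Its summits were 1.88 and 1.91 kb upstream of the 5' end, within the range of the distal and proximal enhancers (1 to 3 kb upstream). Among 17492 coding genes with a known start, 4.25% had summits of both replicates in that range. The site had fold enrichments of 5.89 and 7.39 (6.64 ± 1.06, SD, n = 2), and it stood at 49.96% and 33.26% of the lists counted from the strongest. Its pileups were larger than these folds imply, with 22 and 21 fragments against a median of 9 over 2000 sampled lines of each list. The local background was also high, at 2.90 and 1.98 fragments against sampled medians of 0.479 and 0.499. With a pseudocount of 1, the same pileups over these median backgrounds would give folds of 15.5 and 14.7, so the high background lowered the fold of this enhancer by its arithmetic.

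The strongest shared region of the Pou5f1 window lay 87.9 kb downstream, at 35593847 to 35594067 in the long non-coding RNA gene Gm41577. It had fold enrichments of 12.4 and 16.3 (14.4 ± 2.77, SD, n = 2), on pileups of 17 and 23 fragments, and its summits were 3 bp apart in the replicates. The next region, 58.0 and 57.9 kb downstream at 35563838 to 35564102, lay in no annotated gene and had the largest SD between replicates in this window (5.42). Its fold enrichment was 11.0 in replicate 1 and 3.36 in replicate 2. The pileups were 15 and 9 fragments, and the backgrounds 0.452 and 1.98 fragments, so the lower fold went with both a smaller pileup and a higher background. The other 2 shared regions had mean folds of 4.77 and 5.80. The 99.9 kb at the upstream edge of the window (35386032 to 35485915), where the H2-Q genes of the major histocompatibility complex lie, held no interval in either list. A second empty stretch of 59.5 kb ran from 1.67 kb upstream of Pou5f1 across the gene to 57.8 kb downstream.

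Sox2 (gene ID 20674, chr3:34649995-34652461, plus strand) encodes a factor that partners OCT4 on DNA, and it lies within the long non-coding RNA gene Sox2ot. Its window held 22 shared regions, 9 of them inside Sox2ot, 1 in the long non-coding RNA gene Gm34941 and 12 in no annotated gene. At least as many shared regions were found in the windows of 2.05% of coding genes. The start of Sox2 had an interval in replicate 1 only, at 34649879 to 34650091, with its summit 8 bp from the 5' end. Its fold enrichment was 5.08, on a pileup of 9 fragments. Of all RefSeq promoters, 1.44% were overlapped in replicate 1 alone and 2.91% in both replicates. Near the end of the gene each replicate had a weak interval of its own, at 34652106 to 34652204 (fold 4.06) and at 34652256 to 34652431 (fold 4.76). These did not overlap, so the body and start of Sox2 held no region shared by both lists.

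Strong and repeated sites flanked the Sox2 gene instead. SRR1 (3 to 6 kb upstream) held a shared region at 34646238 to 34646522, with summits 3.57 and 3.59 kb upstream. Its fold enrichments were 14.9 and 13.3 (14.1 ± 1.08, SD, n = 2), on pileups of 21 and 19 fragments. In that range 5.87% of coding genes had summits of both replicates. SRR2 (3 to 6 kb downstream of the 5' end) held 2 shared regions, and the larger was the second strongest of the window. It lay at 34653807 to 34654575, with summits 4.05 and 4.10 kb downstream and fold enrichments of 19.4 and 24.4 (21.9 ± 3.54, SD, n = 2). Its pileups were 28 and 36 fragments, and it stood in the top 4.30% and 1.66% of the lists. The smaller, at 34652866 to 34653468, had folds of 5.59 and 4.58. Summits of both replicates occurred there in 5.28% of coding genes, and 0.669% had a mean number as high as that of Sox2.

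The Sox2 control region (100 to 120 kb downstream) held 7 intervals in replicate 1 and 8 in replicate 2, the most of the known Sox2 elements. They covered 4649 and 3820 bp of the 11343 and 9960 bp covered in the whole window. The range of the control region is far longer than those of SRR1 and SRR2, so these numbers do not rank the elements by density. SRR2 had 2 intervals in each replicate, covering 787 and 1234 bp of its shorter range. In 23.5% of coding genes both replicates had a summit 100 to 120 kb downstream, and in 0.257% the mean number was at least as high as at Sox2. The strongest shared region of the window lay here, at 34757865 to 34758583, with summits 108.1 kb downstream in both replicates. Its fold enrichments were 20.2 and 23.7 (21.9 ± 2.51, SD, n = 2), on 29 and 35 fragments. Its mean and that of SRR2 differed by less than their spread between replicates, so their order is not resolved.

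Beside that summit lay the widest intervals of the window. At 34760010 to 34761601 replicate 1 had a single interval of 1592 bp with 5 summits, where replicate 2 had 2 intervals of 612 and 461 bp. The strongest summits in this region were therefore 1118 bp apart in the replicates, although replicate 1 had 1 summit 110.3 kb and 1 summit 111.4 kb downstream and replicate 2 had a summit at each place. At 34756246 to 34757281 the folds were 15.2 and 11.6, and the intervals were 1036 and 796 bp wide. The other 3 shared regions of the control region were weaker, at 34755130 to 34755604 (folds of 7.11 and 5.03), 34766618 to 34767190 (11.0 and 6.12) and 34767402 to 34767600 (5.08 and 4.08). The 2 remaining intervals, 1 in each list, had no partner.

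A further strong region lay outside the range of the control region, 95.4 and 95.5 kb downstream of Sox2 at 34745005 to 34745699. Its fold enrichments were 16.4 and 20.6 (18.5 ± 2.94, SD, n = 2), on 28 and 36 fragments. It lay in no annotated gene. Upstream of Sox2, a stretch of 61.7 kb inside Sox2ot (34576294 to 34637956) held no interval in either list and separated the sites within 12.0 kb of the gene from those further away. The 12 shared regions of the Sox2 window outside the enhancer ranges and the 3 with the highest mean folds had mean folds from 5.56 to 18.4. The strongest of them, named after its values were seen, lay upstream of the 5' end of Sox2ot at 34559071 to 34559400, with folds of 18.2 and 18.6. Its mean and that of the region 95.4 kb downstream differed by less than the spread between replicates.

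**Figure D2:**
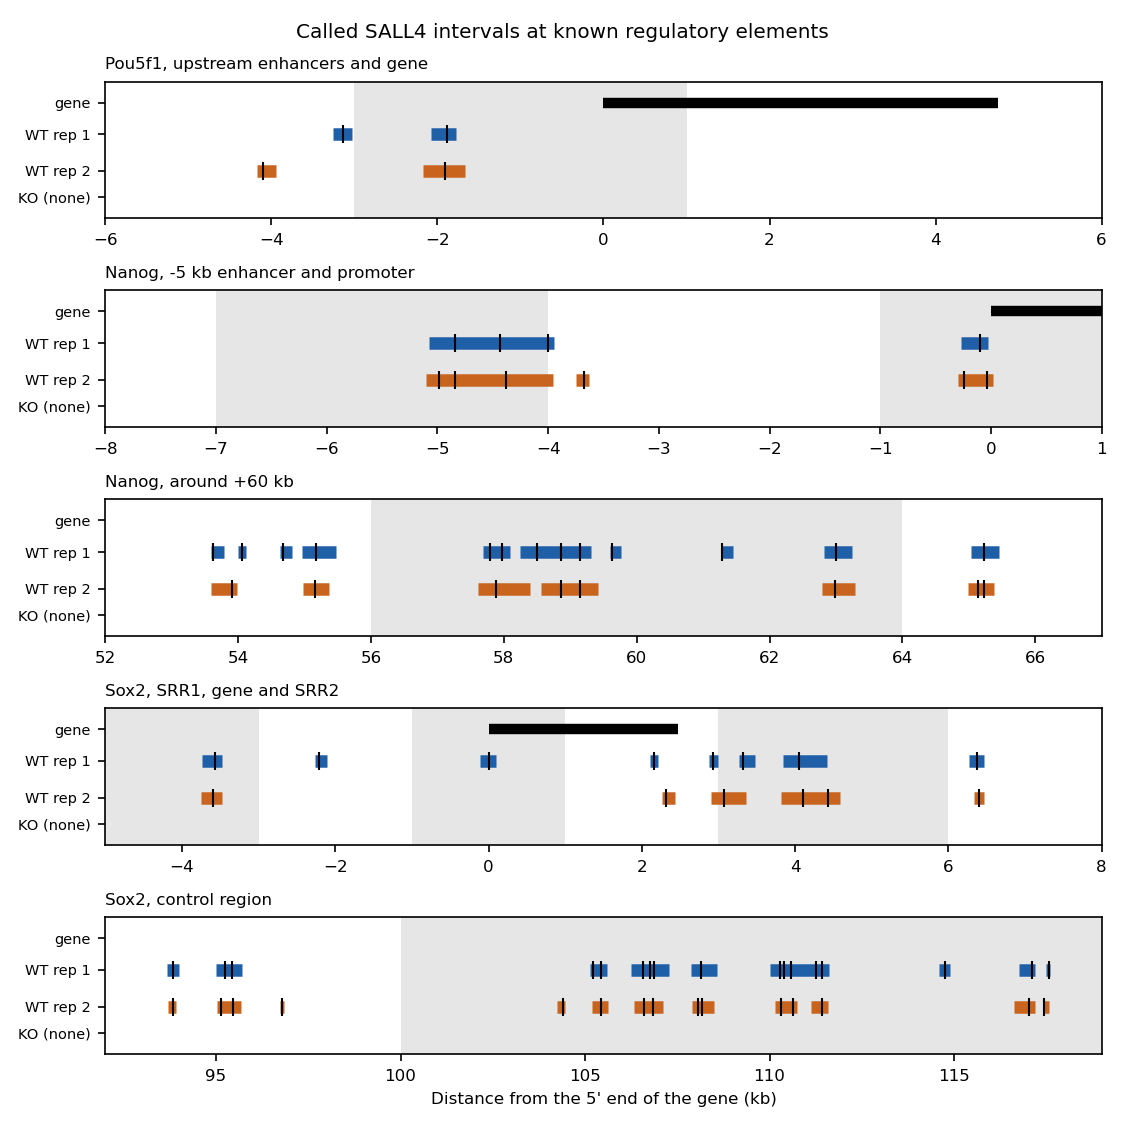
Called SALL4 intervals (bars) and their summits (black ticks) in wild-type replicates 1 and 2 against the distance from the 5' end of the gene in kb (x axis), with the row for the knockout empty and the ranges of promoters and known enhancers in grey. At Pou5f1 both replicates have a summit near 1.9 kb upstream, and the control region of Sox2 holds 7 and 8 intervals.

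Nanog (gene ID 71950, chr6:122707489-122714633, plus strand) encodes a homeodomain factor that stabilises the pluripotent state. Its window held 21 shared regions, 6 inside Slc2a3 (a glucose transporter gene), 2 inside Gdf3, 1 inside Apobec1 and 12 in no annotated gene, judged by their summits. The windows of 2.42% of coding genes held at least as many. The Nanog promoter, printed above, was overlapped by an interval of 239 bp in replicate 1 (122707222 to 122707460) and of 322 bp in replicate 2 (122707189 to 122707510). The fold enrichments were 5.45 and 5.72 (5.58 ± 0.191, SD, n = 2), close to the medians of the lists (5.86 and 5.56). The pileups were 15 and 11 fragments and the backgrounds 1.94 and 1.10 fragments. Of the 48 shared regions, only this one and the Pou5f1 enhancer had a background above 1 fragment in both lists, and over the sampled median backgrounds its pileups would give folds of 10.8 and 8.005. The strongest summits lay 96 and 37 bp upstream of the 5' end. Of coding genes, 5.58% had summits of both replicates within 1 kb of the 5' end.

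The site 5 kb upstream of Nanog was wider than the promoter site and had larger pileups in both replicates. In the range of that enhancer (4 to 7 kb upstream) 1 interval was called in each replicate, of 1131 and 1151 bp, each with 3 summits. Together they spanned 122702382 to 122703544. The strongest summits, 4.84 kb upstream in both replicates, were 7 bp apart and had fold enrichments of 19.2 and 15.5 (17.4 ± 2.57, SD, n = 2), on 27 and 22 fragments. Of coding genes, 5.63% had summits of both replicates in this range. A second, weak interval of replicate 2 lay 3.68 kb upstream (fold 5.34) and had no partner.

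The enhancer 60 kb downstream of Nanog (range of 56 to 64 kb) lies inside Slc2a3 and held 5 intervals in replicate 1 and 3 in replicate 2. In 11.3% of coding genes both replicates had a summit at that distance, and in 0.303% the mean number was at least as high. Of these, 3 in each replicate formed 2 shared regions. The other 2 of replicate 1, at 122767085 to 122767256 (fold 3.59) and 122768760 to 122768934 (fold 3.38), had no partner. The stronger region spanned 1817 bp at 122765097 to 122766913, with summits 58.9 kb downstream and fold enrichments of 17.8 and 18.4 (18.1 ± 0.462, SD, n = 2), on 34 fragments in each replicate. The other, at 122770286 to 122770783, had folds of 16.3 and 11.1. Just outside the range on either side lay 2 regions of like strength. One was 65.2 kb downstream at 122772473 to 122772941, with folds of 21.0 and 14.0 (17.5 ± 4.91, SD, n = 2), and its summits were 1 bp apart. The other, named after its values were seen, was 55.2 kb downstream, with folds of 20.3 and 14.4. Together the 4 regions had their strongest summits between 55.2 and 65.2 kb downstream.

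The enhancer 45 kb upstream of Nanog (range of 42 to 48 kb) was the weakest of the known elements. It held 2 intervals in replicate 1 and 1 in replicate 2, of which 1 each formed a shared region at 122662841 to 122663250. The second interval of replicate 1, at 122663896 to 122663994, had a fold of 3.96 and no partner. The folds of the shared region were 5.34 and 3.36 (4.35 ± 1.40, SD, n = 2), on 7 and 9 fragments, and the background in replicate 2 was 1.98 fragments. The site stood at 60.6% and 97.1% of the lists counted from the strongest. In replicate 2 it was thus among the weakest calls by fold, although its pileup equalled the sampled median of 9 fragments. Summits of both replicates occurred at that distance in 9.08% of coding genes.

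By mean fold, the strongest region of the Nanog window lay at none of these elements. It was 17.2 kb upstream of the 5' end, at 122689966 to 122690524, in no annotated gene, and the nearest gene was the pseudogene Gm10420. Its fold enrichments were 21.3 and 22.4 (21.9 ± 0.728, SD, n = 2), on 41 and 37 fragments, the largest pileups in any of the 3 windows. Its summits were 13 bp apart. The body of Nanog was bare: from 22 bp after the 5' end, 31.5 kb held no interval in either list. Further along, replicate 2 alone had 3 weak intervals before the downstream cluster.

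Neighbouring genes of the window, named after their values were seen, include further members of the pluripotency programme. Gdf3, which encodes a TGF-beta family ligand, held 2 shared regions with mean folds of 7.87 and 12.6. Dppa3, a marker of naive cells and germ cells, was the gene nearest to a shared region at 122624371 to 122625094, with folds of 11.7 and 10.6. Between that region and Dppa3 lay 2 intervals of replicate 1 alone, with folds of 4.57 and 6.35. The region inside Apobec1, at 122591222 to 122591477, stood at 47.0% of list 1 and 9.26% of list 2, counted from the strongest. Its folds were 6.13 and 14.1, with pileups of 17 and 27 fragments and backgrounds of 1.94 and 0.988 fragments.

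The replicates were compared over the 3 windows. Replicate 2 recovered 50 of the 76 intervals of replicate 1, or 65.8% (95% Wilson interval, 54.6 to 75.5). In turn, replicate 1 recovered 50 of the 66 of replicate 2, or 75.8% (64.2 to 84.5). The shares over the whole lists were 70.4% and 79.3%, inside these intervals, which cover counting error only. Intervals with a partner had median folds of 8.51 and 7.51 over the 3 windows, and those without had 4.70 and 4.76. Pou5f1 in replicate 2 was the exception, with a median of 4.06 for the 5 matched and 6.04 for the 3 unmatched intervals. The 26 unmatched intervals of replicate 1 ranged in fold from 3.36 to 7.36 on 4 to 12 fragments. The 16 of replicate 2 ranged from 3.40 to 6.12 on 4 to 11 fragments. Of these, 7 and 3 lay within 500 bp of an interval in the other list.

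The summits of the 48 shared regions lay a median of 30 bp apart, against 32 bp over all shared regions, and 39 of the 48 (81.2%) were within 100 bp, against 84.8% over all. Spearman's rho between the folds of the replicates was 0.774 across the 48 regions and 0.771 across all, given as a description since regions of 1 library share its depth.

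**Figure D3:**
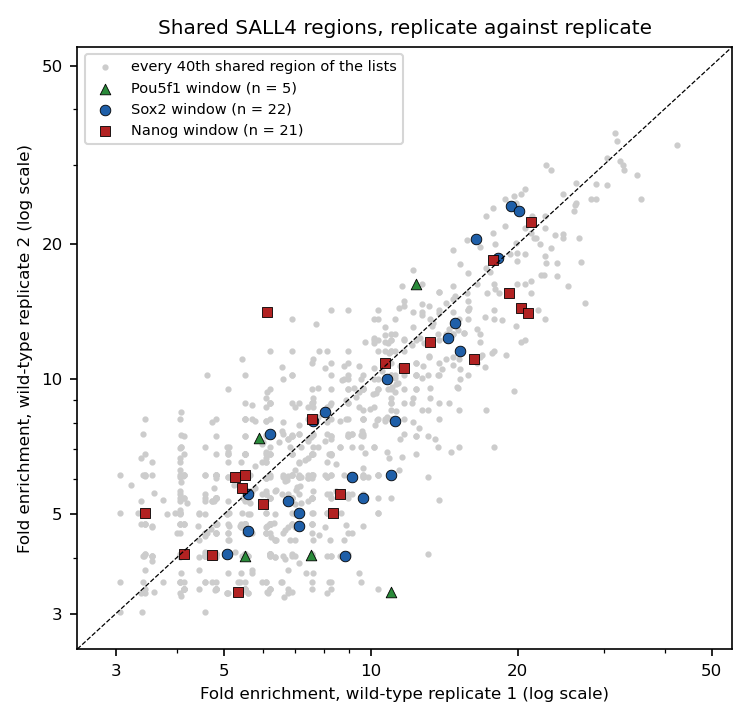
Fold enrichment in wild-type replicate 2 (y axis, log scale) against replicate 1 (x axis, log scale) for the 48 shared regions of the windows, coloured by gene, and for every 40th shared region of the lists in grey; the dashed line marks equal values. The 3 genes' regions lie within the grey cloud and reach mean folds of 21.9 at Sox2 and Nanog and 14.4 at Pou5f1.

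No interval was in the top 1% of its list by fold enrichment, and 6 of each list were in the top 5%. In both lists at once, 3 of the 48 shared regions stood in the top 5%: the summit of the Sox2 control region, SRR2 and the site 17.2 kb upstream of Nanog. The matching share over all 37997 shared regions is not given here, so whether 3 is many or few was not tested. The median fold of all intervals in the windows was 6.20 and 5.88, against 5.86 and 5.56 over the lists. Intervals of 800 bp or more numbered 4 of 76 in replicate 1 (5.26%, against 2.55% of the list) and 2 of 66 in replicate 2 (3.03%, against 2.93%). Those with more than 1 summit made up 13.2% and 15.2%, against 12.3% and 12.0%. By position, 8 of the 48 shared regions lay within 10 kb of the 5' end (16.7%, over 8.17% of the windows' length) and 26 beyond 60 kb (54.2%, over 51.0% of the length).

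The wider pluripotency network was described by a list of 18 genes under the same window. All 18 held shared regions, as did 85.4% of all coding genes, and the median was 11.5 shared regions against 4. The values ran from 1 at Utf1 to 29 at Klf5. Closeness to the mean of Pou5f1, Sox2 and Nanog was judged by shared regions per 100 kb and median fold over both wild-type lists. The 3 closest of the list were Dppa3 (13 shared regions), Nr5a2 (16) and Zfp42 (10). Their summed log2 differences from that mean were 0.0899, 0.462 and 0.498. The members themselves lay further from it, at 1.58 (Pou5f1), 0.851 (Sox2) and 0.725 (Nanog), so the mean describes none of them closely. The window of Dppa3 overlaps that of Nanog, so part of its regions are the same. For comparison, 10 lineage regulators had a median of 3 and 8 housekeeping genes a median of 9.5, ranging up to 20 at Eef1a1. The medians of the pluripotency and housekeeping lists thus lay close to each other. Of the housekeeping genes, Ppia (0.485), Eef1a1 (0.634), Actb (0.648) and Hprt (0.715) also lay nearer to the members' mean than every member, and the others did not. Both knockout lists held 0 in all of these windows.

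**Figure D4:**
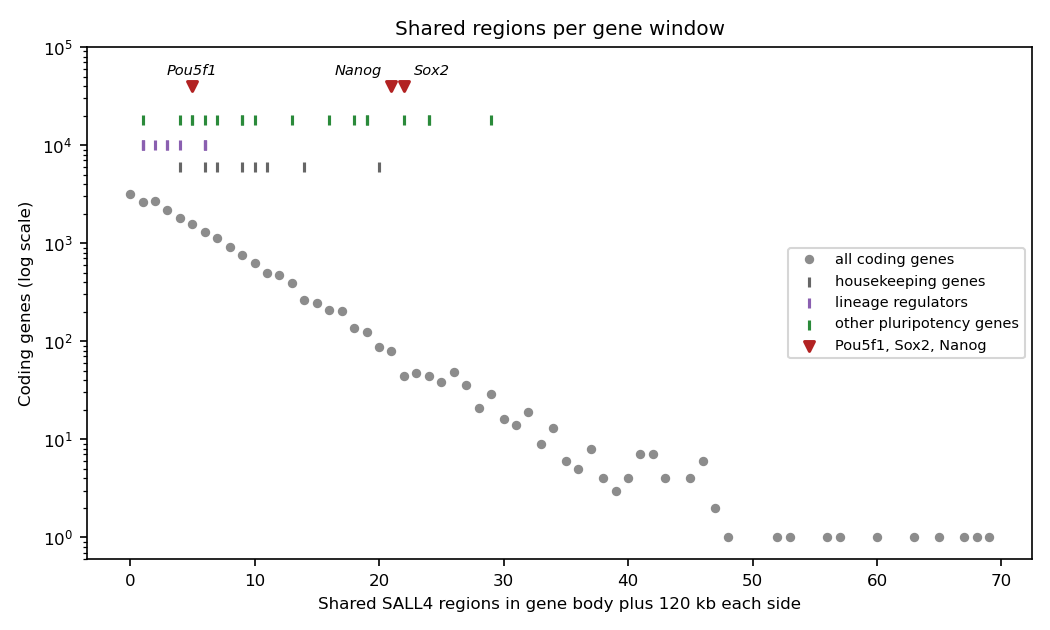
Number of coding genes (y axis, log scale) by number of shared SALL4 regions in the gene body plus 120 kb on each side (x axis), with marks above for Pou5f1, Sox2 and Nanog and for the comparison lists at heights that carry no value. Pou5f1 (5) lies within the bulk of genes, and Nanog (21) and Sox2 (22) lie in its upper tail.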

How the data were processed

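SALL4 CUT&RUN peak lists of 2 libraries per genotype were used, grouped by sample title. Per the submitters' processing notes, Trim Galore 0.6.0, cutadapt 1.18, FastQC 0.11.8, BWA 0.7.17 and MACS2 2.1.1.20160309 were used with GRCm38 (mm10). Settings and the control library are not given in the sources used here. Each deposited list comes from 1 sample. Rounded down, 10 times the deposited −log10 q gives the deposited score. The deposited fold enrichment is a ratio over local background, and −log10 p and −log10 q belong to the summit, whose deposited offset is in bp.

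Overlapping lines of a list were merged, keeping the highest fold. With a pseudocount of 1, fold and Poisson p gave whole pileups within 0.0001 of −log10 p. Genes and promoters came from RefSeq, GRCm38.p6, without exons. Promoter rows matched all 3 genes, and the start site was the outermost. Enhancer ranges came from general knowledge. Coordinates count from 1. Intervals within 1 kb of the 5' end or in the gene, in enhancer ranges, or among the 3 strongest shared regions were named. The genes, lists, ranges and tests were chosen with earlier results of these data known. Functions were tested on simulated data. The planned motif search at summits was not run. Alternatives covered window size, q-value and fold limits, overlap rules, left-out replicates and pairing. Python 3.11.15, numpy 2.4.6, pandas 2.3.3, scipy 1.17.1 and matplotlib 3.10.9 were used.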

Additional observations from a re-analysis of the deposited data

How the results depend on the processing

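The excess of wild-type intervals in the 3 windows (6.17 in log2) could not turn under any of the 11 alternatives, since both knockout values were 0 and none of the alternatives can raise them. The values ranged from 3.70 (10 kb each side) to 6.42 (each summit counted), with 6.07 to 6.27 in the leave-one-out settings. A replicate block, pairing same-numbered libraries, gave 6.17 with an exact sign-flip p = 0.5, the smallest that 2 pairs allow. Whether same-numbered libraries deviate together could not be computed, as both knockout values are 0. The mean share of matched intervals (70.8%) became 82.0% with −log10 q limited to 10 or more, 90.4% at a fold of at least 10, 62.3% with 50% reciprocal overlap and 58.0% with summits within 100 bp. Numbers of shared regions at Pou5f1, Sox2 and Nanog (5, 22 and 21) were 3, 9 and 13 within 60 kb, 1, 5 and 2 within 10 kb, 2, 10 and 9 at the q-value limit and 1, 8 and 9 at the fold limit. Smaller windows and stricter limits hold fewer intervals by construction. With a single replicate the numbers were 8 to 9, 29 to 32 and 29 to 35. The motif search at summits and its alternatives were not run, since no genome sequence was used here. Read totals are not in the lists, so depth was not tested; the weakest sites rest on 4 fragments.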
